A study of Homo sapiens with 18 samples.

Results

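The regions described here are 1002 m6A peaks that lay in short internal exons, out of 25342 peaks in the non-redundant set and 39708 peaks deposited. The non-redundant set held all peaks called in METTL3 WT LoVo cells plus the peaks called in METTL3 K513R LoVo cells that overlapped no WT peak on the same strand, each spanning at most 5000 bases. A peak was assigned to the gene with the most exonic bases beneath it on its strand, and it was kept when its midpoint fell in a merged exon of under 400 bases that was neither the first nor the last of that gene. These members made up 3.95% of the set. LoVo cells are a long-established line from a human colorectal cancer. METTL3 deposits most of the N6-methyladenosine (m6A) of messenger RNA. In the K513R cells a lysine of METTL3 is replaced by arginine, and the series asked what methylation of METTL3 at that lysine does. The labels do not say how the K513R cells were made, whether they are a single clone or whether the numbered libraries came from separate cultures, so p-values measure only the spread between these libraries.

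There were 18 libraries, 3 in each of 6 groups: methylated-RNA immunoprecipitation (IP), its input and ribosomal-RNA-depleted total RNA-seq, each in METTL3 WT and in METTL3 K513R cells, with no other treatment in the labels. In the MeRIP-seq, poly(A) RNA was broken into short fragments, a small share served as input, and an anti-m6A antibody pulled down the remainder. Counts in peaks ran from 5025027 to 6200264 per WT input, 11076729 to 12491969 per WT IP, 2625446 to 4847236 per K513R input and 5905811 to 9198650 per K513R IP library. Members drew between 1.26% and 1.92% of those counts. RNA-seq libraries held 47105235 to 53795212 counts. Epithelial markers summed to 9810 to 14781 CPM (counts scaled to a common library total) in WT and 2131 to 2542 CPM in K513R RNA-seq, a sum made up mostly of KRT8 and KRT18. CDH1 went the other way, from 80.2 to 94.9 CPM in WT to 162 to 172 CPM in K513R, while 2 of the 8 markers, KRT20 and CEACAM5, stayed below 1 CPM in every library. The summed markers of fibroblasts (at most 46.7 CPM), endothelium (at most 3.96 CPM) and leukocytes (at most 13.4 CPM) were low in both genotypes.

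m6A is written co-transcriptionally by a complex of METTL3 and METTL14 with adaptors such as WTAP and VIRMA, mostly at an A within a DRACH consensus. Exon junction complexes, which are laid down next to each splice junction, keep the writer away from nearby RNA, so m6A is sparse in short internal exons and dense in long internal exons and last exons. Antibodies to m6A also bind m6Am, a modified A next to the cap that a different enzyme, PCIF1, makes, so signal near a transcript start need not be m6A.

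No genome was used here, so sequence could be read only where a member met a RefSeq start window (250 bases before to 50 bases after a start, build GRCh38.p14). For 141 members such a window covered at least 40 bases of the peak on its strand, and for 40 it covered the whole peak. The core GGAC was found on the sense strand of 50 of the 141 covered stretches (35.5%), on the opposite strand of 48 (34%) and at the same place and length in 34.4% of all windows. GGACT was present in 9.22% on either strand and 11% of windows, and DRACH in 60.3% on the sense strand, 69.5% on the opposite strand and 70.7% of windows. On the sense strand of these members GGAC was thus about as frequent as in start windows in general, and GGACT and DRACH were less frequent. A match describes letters and not a methylated site. The windows reach 250 bases before a start, so a stretch can lie before the RefSeq start or outside the short exon. The WTAP stretch below lies before both its RefSeq start and its short exon, which begins at base 159727506. The 7 stretches below each hold 24 bases with GGAC in capitals, read 5′ to 3′ on the strand of the peak. They come from members called higher in IP/input in K513R (adjusted p under 0.05, edgeR, values below). Shown are the 6 with the highest IP level among called members with such a stretch, and the member in WTAP, a subunit of the writer complex. Members in UBE2D3 (0.42 ± 0.23) and ATP5PF (0.24 ± 0.24) had higher IP levels than some of these but did not pass the test.
UBB (polyubiquitin, + strand, chr17:16381132-16381155): ccctgtgggtGGACgtggttggtg
AHSA1 (an HSP90 co-chaperone, + strand, chr14:77457986-77458009): cggcgagttgGGACggaagtaacc
ATF5 (a stress-response transcription factor, + strand, chr19:49929083-49929106): caggaggaggGGACccggctgcct
SUPT5H (a transcription elongation factor, + strand, chr19:39445557-39445580): tctcgcgagaGGACccgtcagccc
LARP4 (an RNA-binding protein, + strand, chr12:50400994-50401017): gctgagcagaGGACgacatgttgc
COPB1 (a COPI coat subunit, - strand, chr11:14499833-14499856): cgtcagccaaGGACtctggagccg
WTAP (+ strand, chr6:159727421-159727444): cggcgcgttcGGACcggctgtggg

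Of these 7, the member in UBB changed most, by 1.22 ± 0.24 (log2 change of IP/input, K513R minus WT, ± SE), and the member in ATF5 least, by 0.75 ± 0.19. The COPB1 member was called in K513R alone, so the calling partly sets its rise. The log2 IP/input of the AHSA1 member was -0.74, -0.70 and -0.68 in WT replicates 1 to 3 and 0.01, 0.21 and -0.06 in K513R. The LARP4 member read -0.06, -0.29 and -0.40 in WT and 0.58, 0.54 and 0.83 in K513R. The genotypes did not overlap in either. UBB holds repeated ubiquitin units that related genes share, so its counts are uncertain. Across members with a covered stretch, those with GGAC had a median log2 change of 0.80 (27 tested) and those without it 0.92 (62 tested).

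The 1002 members lay in 921 genes, and 71 of these genes held 2 or more. Of the members, 755 were called in WT, 254 of them also overlapped by a K513R peak, and 247 were called in K513R alone. The median peak was 122 bases long (range 56 to 4531), and 821 peaks lay wholly inside their exon. The other members reached beyond it, 169 of them touching at least 2 exons and 22 touching the last exon. The typical host was a gene of many exons, with a median of 18 merged exons. There were 17 overlapping pairs among the members, as the authors listed some peaks more than once with shifted borders, so 31 members are not independent regions. The median fold enrichment that the authors gave a member was 2.67 (quartiles 1.77 and 5.30). Peaks were called on enrichment, so this and every IP/input level below describes how members look and is not a test.

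Peaks were sparse in short internal exons. Among genes with a peak, short internal exons made up 21.5% of exonic bases and held 4.84% of exonic peaks, which is 66.5 peak midpoints per Mb of exon. Long internal exons held 239 per Mb, last exons 441 per Mb and first exons 640 per Mb. Within the class, density rose with exon length, from 19.2 per Mb in exons under 100 bases to 39.2 per Mb at 100 to 199, 100.9 per Mb at 200 to 299 and 153 per Mb at 300 to 399 bases. The exons that carried members therefore had a median of 247.5 bases, against 129 bases over all 103139 short internal exons of genes with a peak and 135 bases over those of the host genes. A peak was counted only where its midpoint fell in an exon. The set held 4016 further peaks that met an exon but had their midpoint outside exons, and these were left out. How far that bears on the densities by exon length was not tested, and no test was made of these densities.

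**Figure D1:**
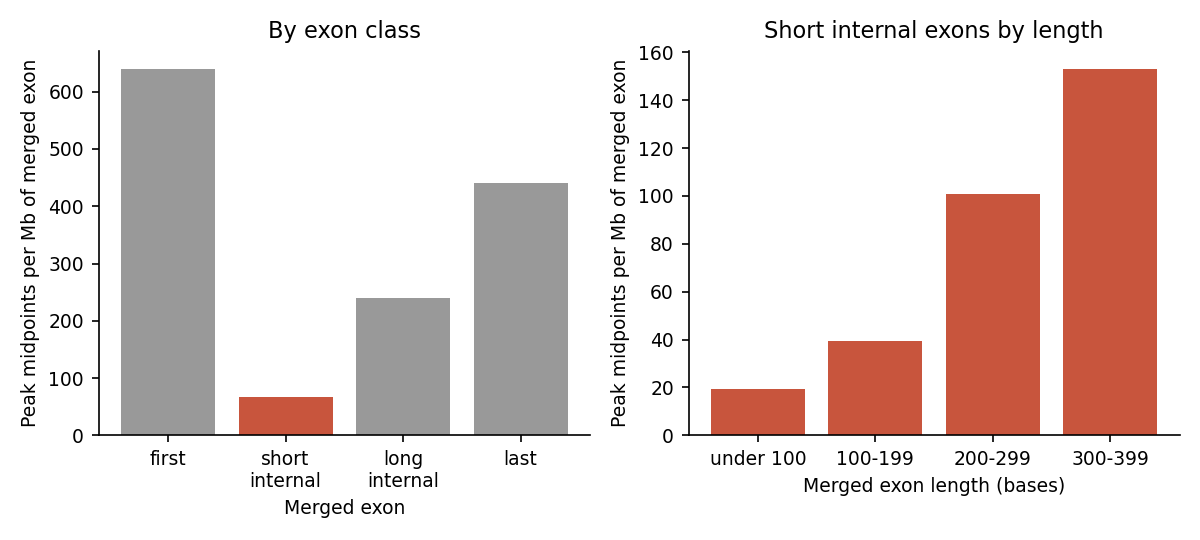
Peak midpoints per Mb of merged exon (y axes, linear, from 0) in each exon class (left) and in 4 length bins of short internal exons (right), among genes with a peak. Short internal exons held 66.5 per Mb, and the density climbed from 19.2 to 153 per Mb with length.

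Members were weakly enriched in WT cells. Ratios here are log2 IP/input from CPM with 0.5 added, scaled to counts in peaks, so a negative value means weaker than a typical peak and not a depletion from the antibody. Over the 604 members that passed the low-count filter, the median in WT replicates 1 to 3 was -0.46, -0.40 and -0.46, a mean of -0.44 ± 0.04 (SD, n = 3). The same median was 0.19 ± 0.02 for long internal, 0.35 ± 0.02 for last and -0.11 ± 0.02 for first exons. In K513R the members' medians were 0.03, 0.01 and -0.16, a mean of -0.04 ± 0.11, all above the WT libraries. Medians for last exons were lower in K513R, at -0.03 ± 0.03, as were those for long internal exons, at -0.06 ± 0.01. The members' median was thus far below that of last exons in every WT library, slightly above it in K513R replicates 1 and 2 and below it in K513R replicate 3. Members within 150 bases of a RefSeq start and members over 500 bases away both had higher medians in every K513R library than in any WT library, from -0.28 ± 0.09 to 0.59 ± 0.16 and from -0.52 ± 0.01 to -0.18 ± 0.14. Peaks called in K513R alone were included, 153 of the 604 tested members and 224 of the 6057 tested last-exon peaks. The calling therefore partly sets these shifts between genotypes.

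The change between genotypes was tested per peak as the interaction of genotype and IP in edgeR's quasi-likelihood model, fitted over all peaks, with Benjamini-Hochberg adjustment and calls at an adjusted p under 0.05. Of the 604 tested members 160 rose in K513R (26.5%) and 21 fell (3.48%), and the others did not pass the test. Over all tested peaks 13% were called higher and 9.61% lower. Replicates of the 2 genotypes did not overlap in 269 members that were higher and 54 that were lower, where over all tested peaks 22.6% and 21.2% were so. The median log2 change was 0.59 over tested members and -0.05 over all tested peaks. Of the last-exon peaks, 178 of 6057 rose and 879 fell, with a median of -0.45, and of the long internal exon peaks 238 of 3838 rose and 457 fell, with a median of -0.33. Of first-exon peaks, 368 of 1505 rose and 45 fell, with a median of 0.63. The 398 members that did not pass the filter had too few counts to be tested. With no filter, all 1002 members had a median change of 0.43 and the 755 called in WT of 0.04. The number of calls depended on which replicates were used. Members that rose fell in number to 48 without WT replicate 1, 64 without WT replicate 2, 50 without WT replicate 3 and 86 without K513R replicate 2, and members that fell to 11, 7, 9 and 11. Without K513R replicate 1 there were 180 rising and 29 falling members, and without K513R replicate 3 there were 181 and 21. With scaling by library size alone 74 rose and 28 fell, the members' median was 0.36 and that of all tested peaks -0.26. All changes are relative to other peaks, as no spike-in is recorded in the labels.

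The genotype in which a peak was called bears on these counts. Of 451 tested members called in WT, 80 rose and 21 fell (median 0.36), against 7.66% higher and 12.5% lower over all tested WT-called peaks. Of 153 tested members called in K513R alone, 80 rose and none fell (median 1.06), which the calling itself partly sets and which is given as a description only. The 204 tested members called in both genotypes had a median of 0.75, with 77 higher and 1 lower. Last-exon peaks called in both had a median of -0.25, with 90 of 3046 higher and 348 lower. Members called in both genotypes were mostly on the positive side, 186 of 204 of them. The 247 tested members called in WT alone were not: 3 rose and 20 fell, 111 were on the positive side and the median was -0.11. Last-exon peaks called in WT alone had a median of -0.79, with 3 of 2787 higher and 531 lower. Being called in a genotype selects for signal in it, so these groups are given as a description.

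The authors' own comparison can be set beside these counts. In the authors' deposited table, the members called higher in K513R numbered 138 and those called lower 46, with a median log2 fold change of 0.21, while over all 39708 peaks it called 7.77% higher and 13% lower, with a median of -0.28. For the 755 members called in WT the authors' deposited table gave 63 higher and 46 lower and a median of -0.13. The model behind it is not stated in the labels, and what sets it apart for WT-called members was not tested.

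The median change differed with exon length, and it crossed 0 near the length that defines the class. Tested members in exons under 100 bases had a median log2 change of 0.80, with 12 of 31 higher and 2 lower. At 100 to 199 bases the median was 0.75, with 70 of 193 higher and 1 lower. It was 0.58 at 200 to 299 bases, with 51 of 206 higher and 7 lower, and 0.13 at 300 to 399 bases, with 27 of 174 higher and 11 lower. Above the limit, internal exons of 400 to 599 bases had a median of -0.21 (53 of 451 higher and 53 lower) and those of 600 to 999 bases of -0.39 (48 of 701 higher and 94 lower). The trend ended there, as exons of 1000 bases or more had a median of -0.32 (137 of 2686 higher and 310 lower). The order from 100 bases up to 999 bases was the same among WT-called peaks (0.61, 0.40, -0.03, -0.37 and -0.43) and among peaks over 500 bases from a RefSeq start (0.74, 0.50, -0.12, -0.41 and -0.43). By distance of the midpoint from the nearest exon edge, the median was 0.72 within 50 bases, 0.67 at 51 to 100 bases and 0.21 beyond 100 bases. A midpoint beyond 100 bases from both edges needs an exon of over 200 bases, so this split is not separate from exon length. Just inside the class limit, 30 tested members in exons of 390 to 399 bases had a median of -0.17, and just outside, 16 tested peaks in exons of 400 to 409 bases had 0.63, both from few peaks.

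**Figure D2:**
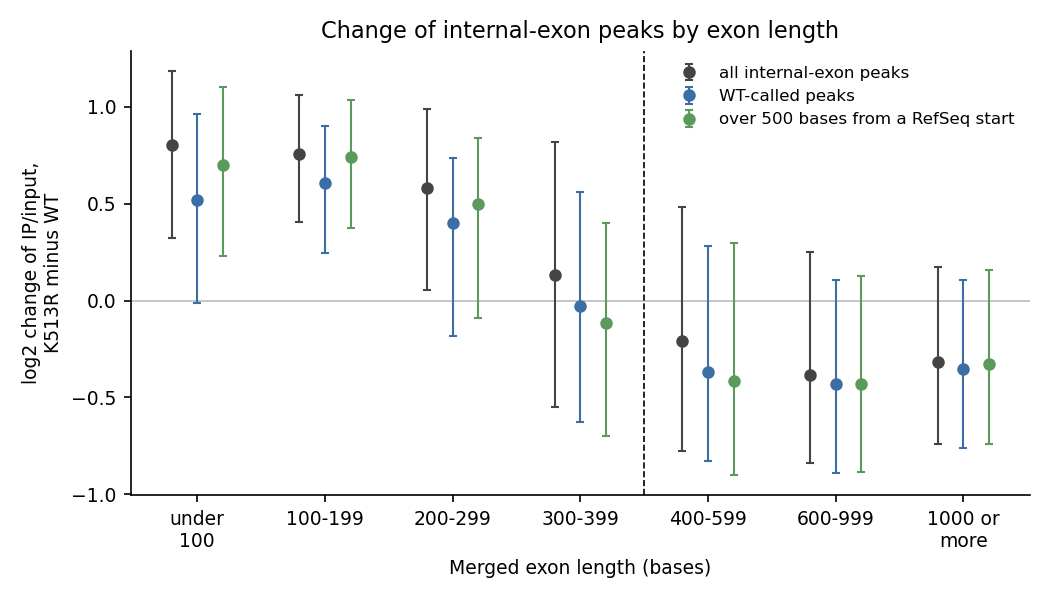
Log2 change of IP/input, K513R minus WT (y axis), of tested internal-exon peaks by merged exon length (x axis); points are medians and bars run from the lower to the upper quartile, for all peaks (black), WT-called peaks (blue) and peaks over 500 bases from a RefSeq start (green). The dashed line marks 400 bases, and medians pass from 0.75 at 100 to 199 bases to -0.39 at 600 to 999 bases.

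Members started from a lower level than other peaks, so they were also compared at like levels, with the level taken from WT replicate 1 and the change from the other 5 replicates. Peaks called in K513R alone were included, 153 of the 604 tested members and 224 of the 6057 tested last-exon peaks. A peak weak in WT can enter the set through its K513R signal, so the calling partly sets these medians. They are given as a description. The change was largest for the weakest peaks in every class. Among peaks below -1 in WT replicate 1, members had a median change of 0.83 (108 peaks) and last-exon peaks of 0.63 (114 peaks). Between -1 and -0.5 the medians were 0.57 (180 members) and -0.24 (595 last-exon peaks), and between -0.5 and 0 they were 0.28 (178) and -0.38 (1301). Between 0 and 0.5 they were 0.22 (90) and -0.48 (1528), and above 0.5 they were 0.07 (48) and -0.45 (2519). Members over 500 bases from a RefSeq start had negative medians in both of these upper bins, -0.13 (54 members) between 0 and 0.5 and -0.18 (25 members) above 0.5.

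**Figure D3:**
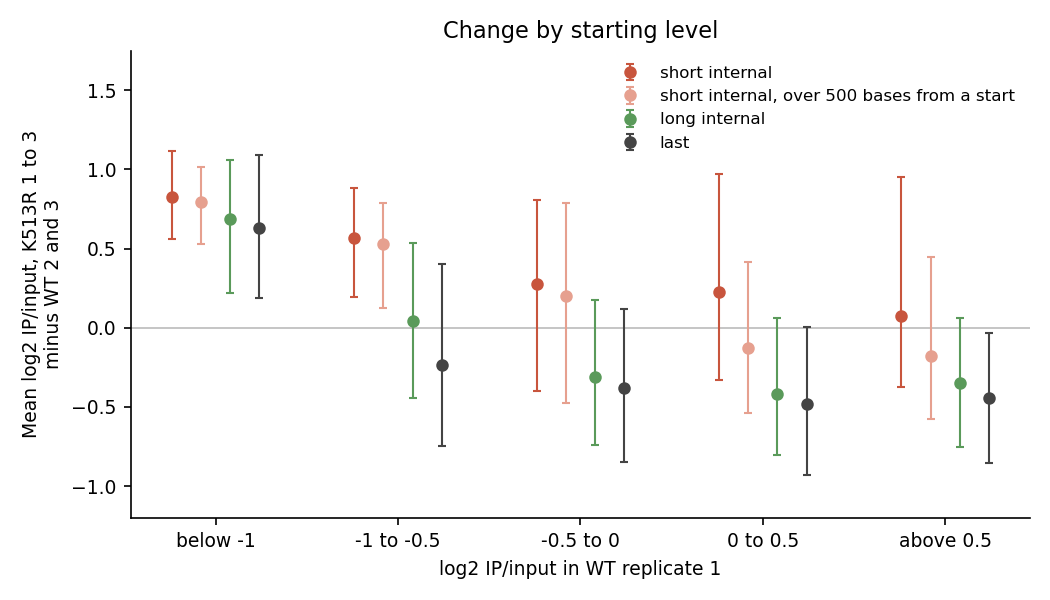
Change of log2 IP/input (y axis, mean of the K513R replicates minus mean of WT replicates 2 and 3) in bins of log2 IP/input in WT replicate 1 (x axis); points are medians and bars run between the quartiles for short internal, long internal and last exons. Short internal exon members lie above last exons in each bin, by most between -1 and -0.5 (0.57 against -0.24). Peaks called in K513R alone are included.

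The same contrast was visible inside single genes. In 217 genes with a tested member and a tested last-exon peak, the member's log2 change exceeded that of the last exon by a median of 0.89 (quartiles 0.16 and 1.60), and it was the higher in 172 of the 217. The member's level was below the last exon's by a median of 0.72, 0.69 and 0.74 log2 units in WT replicates 1 to 3. In K513R the gap (member minus last exon) was 0.11, 0.16 and -0.13. Genes were compared with themselves here, so a difference in expression between genes does not enter, although a difference in coverage along the transcript does. Peaks called in K513R alone were included, so the calling partly sets these gaps. Over the whole set such peaks were 153 of the 604 tested members and 224 of the 6057 tested last-exon peaks. The comparison was not made without them and is given as a description.

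Part of the group sat at transcript starts. Within 150 bases of a RefSeq start lay 171 members, and of the 104 tested 41 rose and none fell, with a median of 0.94. Of the first-exon peaks equally near a start, 257 of 771 rose, 3 fell and the median was 0.88. The 744 members more than 500 bases from any RefSeq start, 441 of them tested, gave 112 higher, 19 lower and a median of 0.50. Last-exon peaks as far from a start gave 167 higher and 848 lower of 5832. These counts include peaks called in K513R alone. Among WT-called members, 20 of 65 tested rose and none fell within 150 bases of a start (median 0.77). Over 500 bases away, 57 of 338 tested WT-called members rose and 19 fell (median 0.24). Members in the exon after the first (212) had a median of 0.89, with 40 of 122 higher and 2 lower. An internal merged exon can be the start of a shorter transcript, and the share of m6Am in these peaks was not tested. Chromosome 8 has no entries in the start table used, so its members were placed in neither group.

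Both the input and the IP moved. In the input alone, 498 members could be tested and 27 were higher and 79 lower in K513R, with a median log2 change of -0.16, where over all tested peaks 10.4% were higher and 10.4% lower. In last exons the input went the other way, with 616 of 4493 higher, 183 lower and a median of 0.21. Input counts in K513R were thus lower at the median member and higher at the median last-exon peak. These peaks were not matched by gene. Whether coverage moved along transcripts or levels differed between genes was not tested, nor was the part this has in the IP/input ratio. In the IP alone, which holds no input, 197 of 631 members rose and 52 fell, with a median of 0.33, where over all tested peaks 20.7% were higher and 17.8% lower. The IP of last exons fell more often than it rose, in 1532 against 762 of 6796 peaks. These IP counts include peaks called in K513R alone, which are chosen for signal in K513R. The calling therefore partly sets them, and they are given as a description. Among the 160 members with a higher ratio, the IP alone rose in 106 and fell in none of the 157 tested, and the input fell in 39 of 146. These 160 were chosen on the same IP and input counts, which favours a higher IP and a lower input. Their counts are therefore a description only.

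Host genes were mostly lower in K513R in total RNA-seq. Of 920 tested hosts 199 rose and 587 fell, with a median log2 change of -0.75. Over all tested genes 41.5% were higher and 36.9% lower, and among genes with any peak of the set 3194 of 10347 were higher and 5377 lower. Hosts of the members that rose in IP/input had 13 higher and 120 lower of 154, and hosts of the members that fell had 2 higher and 17 lower of 21, so hosts fell in both. The poly(A) input at the members themselves showed a much smaller shift, as given above. Fewer copies per cell and a different make-up of the RNA pool cannot be told apart in bulk libraries.

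The 8 members with the largest rises, among those in a gene with a symbol, with a mean IP count of at least 100 and replicates that did not overlap, were in HES6, CD9, GUK1, RACK1, GNL3, MIA3, PNISR and CUL3. HES6 encodes a helix-loop-helix regulator of differentiation, and its member (chr2:238239926-238239986, - strand, GRCh38) lay in the middle exon of 3, 381 bases long. Its log2 IP/input was -0.62, 0.09 and -0.32 in WT and 0.77, 1.43 and 1.55 in K513R, a change of 1.68 ± 0.38 (SE, adjusted p = 0.00466, edgeR). CD9 encodes a tetraspanin of the cell surface, and the member at chr12:6200326-6200476 read -0.74, 0.23 and -0.53 in WT and 0.56, 1.40 and 1.48 in K513R, a change of 1.59 ± 0.32 (adjusted p = 0.00235, edgeR). In both genes WT replicate 2 was the highest of the WT libraries and still lay below every K513R library. The input at these members did not pass the test, with log2 changes of 0.26 (adjusted p = 0.499, edgeR) for HES6 and 0.01 (adjusted p = 0.988, edgeR) for CD9. HES6 and CD9 lay within 150 bases of a RefSeq start, as did GUK1 and RACK1, so 4 of the 8 were near a start.

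GUK1, guanylate kinase, and RACK1, a scaffold protein of the small ribosomal subunit, held members called in K513R alone, so their differences are described with that in mind. GUK1 (chr1:228140268-228140328, + strand) read -1.24, -1.35 and -0.98 in WT and -0.06, 0.08 and 0.81 in K513R. RACK1 (chr5:181243741-181243861, - strand) read -1.49, -1.63 and -1.75 in WT and -0.76, -0.04 and 0.17 in K513R. Changes were 1.46 ± 0.22 and 1.40 ± 0.25, while the RNA-seq of the 2 hosts went in opposite directions, up by 1.99 for GUK1 and down for RACK1 (log2 change -1.69). GNL3 encodes nucleostemin, a nucleolar GTPase. Its member (chr3:52686419-52687330) touched 3 exons and read -0.69, -0.44 and -0.32 in WT and 0.87, 1.10 and 0.59 in K513R, a change of 1.35 ± 0.24. Here no library of K513R was near any of WT.

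PNISR, CUL3 and MIA3 held members that, like that of GNL3, lay over 500 bases from any RefSeq start. PNISR encodes a serine- and arginine-rich protein of nuclear speckles. Its member (chr6:99408136-99408257, - strand), inside an exon of 191 bases, read -0.72, -0.63 and -0.67 in WT and 0.63, 0.50 and 0.86 in K513R, a change of 1.33 ± 0.19 (adjusted p = 0.000384, edgeR). WT replicates of PNISR were within 0.1 of each other. CUL3, the scaffold of a ubiquitin ligase, read -1.16, -1.74 and -1.05 in WT and 0.13, -0.03 and -0.22 in K513R in an exon of 187 bases, and was called in K513R alone. MIA3 (TANGO1), which loads collagen for export from the endoplasmic reticulum, had a member over an exon of 36 bases and its neighbours, at -0.36, -0.64 and -0.47 in WT and 0.74, 0.92 and 1.09 in K513R. The call for MIA3 was lost without any single WT replicate or K513R replicate 2 (adjusted p from 0.0699 to 0.0972, edgeR) and with no low-count filter (0.091), and the other 7 held in all of these.

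Falls were fewer. Of the 98 members that met the same conditions, 93 were higher and 5 lower in K513R. The largest fall was in DHX33, a DEAH-box RNA helicase, whose member of 2463 bases (chr17:5461101-5463563, - strand) read 0.37, 0.33 and 0.76 in WT and -1.08, -1.62 and -1.31 in K513R, a change of -1.92 ± 0.29 (adjusted p = 0.000423, edgeR). ZNF398, a zinc-finger gene, read 0.07, 0.18 and 0.03 in WT and -1.02, -1.24 and -1.89 in K513R, a change of -1.51 ± 0.29 (adjusted p = 0.0018, edgeR), in an exon of 396 bases. Both members started above 0 in every WT library, unlike the 8 rises. AHCTF1, a nuclear pore component also called ELYS, held a member in an exon of 397 bases with a change of -1.005 ± 0.29. STT3B, a catalytic subunit of the oligosaccharyltransferase, held one in an exon of 250 bases with a change of -0.95 ± 0.27. LCTL, a glycosidase-like gene with low RNA-seq counts (15.8 ± 2.18 CPM in WT), held a member of 3233 bases that touched the last exon, with a change of -0.79 ± 0.28. The AHCTF1 and STT3B calls were lost without WT replicate 2 or 3 or K513R replicate 2 (adjusted p from 0.0614 to 0.103 and from 0.0668 to 0.089, edgeR). LCTL was lost without any replicate but K513R replicate 1, without the filter (0.0633) and when overlapping peaks were removed (0.0919).

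The members most enriched in WT were not typical of short exons, since several reached into longer neighbours. DDX55 (a DEAD-box helicase), BMI1 (a Polycomb group protein) and ZNF395 held peaks of 884 to 1877 bases that touched 3 exons, the last one included. BMI1 read 1.01, 0.83 and 1.05 in WT and 0.98, 1.08 and 0.98 in K513R, and DDX55 0.97, 0.94 and 1.01 in WT and 0.96, 0.65 and 0.91 in K513R. Their changes did not pass the test, at 0.06 ± 0.25 for BMI1 and -0.13 ± 0.21 for DDX55. The 2 ZNF395 entries cover nearly the same bases and read as 1 region, with changes of -0.50 ± 0.26 and -0.49 ± 0.26 that did not pass either. PRDM1, encoding the repressor BLIMP1, was the exception: its peak of 271 bases lay in an exon of 276 bases near a RefSeq start, read 0.99, 0.52 and 1.27 in WT and 1.73, 2.40 and 1.87 in K513R, and rose by 1.07 ± 0.38 (adjusted p = 0.0466, edgeR). That call was lost with library size alone (0.139), with TMM factors over all 12 libraries together (0.0501) and without any WT replicate or K513R replicate 2 (0.0823 to 0.217). An unnamed gene, ENSG00000290230, had the highest WT mean, 1.25 ± 0.48, and fell by 1.71 on the log2 scale, to -0.39 ± 0.26. Only its lack of a symbol kept it out of the largest falls above.

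CACYBP, a calcyclin-binding protein, SUPT16H, a subunit of the histone chaperone FACT, KRR1, a ribosome assembly factor, and LUC7L3, a splicing factor, held the members with the deepest coverage, with mean IP counts between 3950 and 5218. SUPT16H read -1.04, -0.97 and -1.12 in WT and -0.41, -0.14 and -0.30 in K513R, and KRR1 -0.77, -0.87 and -0.74 in WT and 0.11, 0.05 and -0.20 in K513R. WT replicates were within 0.2 of each other in both genes and below every K513R replicate. The changes were 0.75 ± 0.20 for SUPT16H, 0.79 ± 0.17 for KRR1, 0.58 ± 0.18 for CACYBP and 0.85 ± 0.28 for LUC7L3, and all 4 passed the test. All but KRR1 lost the call without any 1 WT replicate or without K513R replicate 2 (adjusted p from 0.0583 to 0.144, edgeR), CACYBP also with library size alone (0.101) and LUC7L3 without the filter (0.0626). The CACYBP and KRR1 peaks were 3046 and 4531 bases long and touched the last exon, so they report more than the short exon at their midpoint.

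Genes of the exon junction complex and nonsense-mediated decay held 8 members in 8 of 22 listed genes, 7 of them tested and 1 higher. That was UPF3A, an exon junction-bound decay factor, at -0.85, -0.57 and -0.79 in WT and -0.10, 0.21 and -0.04 in K513R, a change of 0.74 ± 0.23 (adjusted p = 0.0276, edgeR), lost with library size alone (0.0863) and without any WT replicate or K513R replicate 2 (0.07 to 0.137). Its paralog UPF3B read -0.49, -0.39 and -0.64 in WT and 0.11, 0.57 and -0.21 in K513R, a change of 0.68 ± 0.34 that did not pass (adjusted p = 0.158, edgeR) and did with input and IP paired by replicate (0.00654). The member in SRRM1, a splicing coactivator, changed by 0.23 ± 0.26 and its genotypes overlapped. In RNA-seq 1 of the 22 genes rose and 18 fell, with a median log2 change of -1.31: ACIN1, a junction complex subunit, went from 660 ± 87.3 to 121 ± 6.25 CPM (SD, n = 3), while NXF1, the mRNA export receptor, rose from 38.0 ± 2.42 to 154 ± 4.71 CPM.

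The m6A machinery list of 25 genes held 2 members. WTAP's, which spans the RefSeq start, read -0.46, -0.49 and -0.23 in WT and 0.70, 0.56 and 0.09 in K513R, a change of 0.89 ± 0.27 (adjusted p = 0.0234, edgeR), lost with library size alone (0.0777) and without any WT replicate or K513R replicate 2 (0.0722 to 0.111). FTO, the m6Am and m6A demethylase, held a member with a mean IP count of 8.67 that was not tested. In RNA-seq 8 of the 25 genes rose and 15 fell. IGF2BP2, a reader, fell from 384 ± 27.5 to 32.4 ± 0.454 CPM, and RBM15B, a writer adaptor, rose from 88.5 ± 4.57 to 499 ± 17.9 CPM. Of the 16 SR splicing factor genes only SRSF7 held a member, with a mean IP count of 1.17. In RNA-seq 3 of the 16 rose and 10 fell, among them SRSF3, from 259 ± 21.7 to 38.1 ± 2.48 CPM.

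Chromatin regulators held the most members of the gene lists after the ZNF genes, 11 in 9 of 41 genes, and of the 9 tested 3 rose and 2 fell. The members in EP300 (a histone acetyltransferase) and DNMT1 (the maintenance DNA methyltransferase) did not pass the test, at 0.49 ± 0.26 and 0.24 ± 0.22. Among those that did, named after their values were seen, ATRX (1.10 ± 0.23, exon of 134 bases) and KMT2A (1.90 ± 0.66, exon of 186 bases) rose, and CHD1 (-1.63 ± 0.36, exon in the 200 to 299 base bin) and KDM5A (-1.51 ± 0.31, exon of 356 bases) fell. In RNA-seq 3 of the 41 genes rose and 32 fell, DNMT1 from 663 ± 80.1 to 75.2 ± 7.58 CPM, while the input at its member differed by -0.01 (adjusted p = 0.973, edgeR).

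The remaining lists held few members. DNA repair genes held 2 members, 1 of them tested. The tested member, in PARP1, which senses DNA breaks, rose by 0.69 ± 0.22 in an exon of 69 bases (adjusted p = 0.0271, edgeR), was called in K513R alone, and lost the call with library size alone (0.114) and without any WT replicate or K513R replicate 2 (0.0818 to 0.164). Wnt pathway genes held 5 members, 4 tested: the 2 in BCL9L, a beta-catenin cofactor, changed by -0.23 ± 0.33 and 0.26 ± 0.38, the one in LRP6, a Wnt co-receptor, by 0.10 ± 0.54, and the one in LRP5 fell by 2.74 on the log2 scale with a mean IP count of only 8.83. Zinc-finger genes named ZNF held 17 members in 16 genes. Of the 13 tested, ZNF473 and ZNF532 rose, by 2.40 ± 0.79 and 0.95 ± 0.34, and ZNF398 fell. The ZNF473 member was called in K513R alone, which partly sets its rise, and had a mean IP count of only 13.7. In RNA-seq 202 of 403 tested ZNF genes rose and 121 fell, with a median log2 change of 0.34. RNA-seq of the DNA repair list gave 0 higher and 20 lower of 26, and 1 of the Wnt genes that fell was AXIN2, from 262 ± 26.5 to 18.2 ± 0.713 CPM.

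Interferon and double-stranded RNA genes were mostly higher in K513R in RNA-seq, with 21 of 30 higher and 4 lower. Of their 4 members, 3 were tested and none passed. IFIH1, the sensor MDA5, read -0.09, -0.80 and -0.49 in WT and 0.54, 0.14 and -0.31 in K513R, a change of 0.58 ± 0.31 (adjusted p = 0.177, edgeR) that passed only without K513R replicate 3 (0.0431). Its input rose by 2.13 ± 0.24 while its RNA-seq changed by -0.14 ± 0.13. IFIT2, an interferon-induced antiviral protein, changed by 0.02 ± 0.37 in IP/input, and its RNA rose by 1.82 ± 0.31 in the input and 1.69 ± 0.12 in RNA-seq. ADAR, the adenosine deaminase acting on double-stranded RNA, held a member called in K513R alone that changed by 1.28 ± 0.53 and did not pass (adjusted p = 0.0848, edgeR).

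Genes with several members allow a look along 1 transcript. SYNE2, a giant nesprin of the nuclear envelope with 133 merged exons, held 6 members, in exons of 141 to 292 bases. The 5 tested changed by 0.20 to 1.54 on the log2 scale, each on the positive side and none past the test. CEP83, a centriolar protein, held 3 members in exons of 252 to 265 bases, and all 3 rose, by 0.91 ± 0.28, 1.15 ± 0.29 and 1.26 ± 0.39. The CEP83 member that rose by 1.15 and the SYNE2 members in exons of 292 and 141 bases were called in K513R alone. The calling partly sets the direction of those members. In MYH14, a non-muscle myosin, 1 of 3 members rose, by 0.84 ± 0.23. In LZTS2 the 3 members were spread from 1.56 ± 0.67 in exon 2 to -0.17 ± 0.45 in exon 7 of 8, none past the test. The 3 entries in MRPL30 all lie in the same exon of 339 bases and are near copies of each other, so they count as 1 region.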

How the data were processed

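MeRIP-seq (IP and input) and RNA-seq were analysed in LoVo METTL3 WT and K513R cells. Reads were counted per peak and per gene, and the deposited peak and gene tables hold these raw counts. Per the file headers, the peak table also holds the authors' fold enrichment (a ratio), a peak score, their log2 fold change and their p-value for K513R against WT. The submitters' processing notes name Trimmomatic 0.36, Subread 1.5.1 with featureCounts, bedtools, deepTools and edgeR 3.12.1 and the build GRCh38. The aligner is not given in the sources used here, nor is the peak caller, and the use of UMIs (8 bases, per the labels) in the deposited counts is not stated.

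From the counts, edgeR 4.0.16 quasi-likelihood fits (R 4.3.3) tested genotype by IP (the interaction term) on every deposited peak, with TMM factors within IP and within input libraries and filterByExpr, and genotype effects in the input and in RNA-seq. Same-numbered input and IP deviated together (r 0.113 to 0.411), although K513R input and IP of unlike number reached 0.15. The labels say that the input is a share of the same fragments, so same-numbered input and IP are paired. The main fit did not use this pairing, and the replicate block among the alternatives did. Across genotypes the numbers pair nothing (r from -0.198 to 0.0433 in inputs and from -0.041 to 0.199 in RNA-seq). The fits were tested on simulated data. Alternatives were RLE factors, library size, no filter, DESeq2 1.42.0, the replicate block, leaving out replicates, non-redundant peaks, a score threshold and other exon limits.

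Named peaks were the 8 largest rises and falls past the test in genes with a symbol, with a mean IP count of at least 100 and genotypes that did not overlap, the 6 with the highest WT ratio (mean input count of at least 20), the 4 with the highest IP CPM, and up to 3 per gene list. The members and lists were chosen with earlier results of these data known. Some results that this rule names are not reported here.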

Additional observations from a re-analysis of the deposited data

How the results depend on the processing

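All 181 called members kept their direction under every alternative in which they had a value, and none of the 37 named entries reversed. With library size alone, 74 members rose (33 of those called in WT), 1813 of all peaks rose, and 41 members were higher in the input. With a peak score at or above the median, 274 members remained, 19 rising and 1 falling (10 and 1 called in WT), beside 887 and 552 over all peaks. With non-redundant peaks alone, 2141 peaks rose and 1249 fell over the set. With exons under 200 bases there were 328 members, 82 rising and 3 falling. DESeq2 called 14 members higher in the input. A pseudocount of 0.1 CPM gave a WT level of -0.48, and a mean input count of at least 20 gave levels of -0.66 in WT and -0.18 in K513R. Leaving out 1 replicate gave 48 to 181 members rising and 7 to 29 falling, 21 to 93 and 7 to 29 for those called in WT, 1180 to 4172 and 868 to 3337 over all peaks, and 12 to 34 higher and 44 to 114 lower in the input, while 178 to 197 host genes rose and 565 to 603 fell in RNA-seq. With the replicate block (input and IP paired), 196 members rose and 22 fell, and the call of UPF3B was the only named one that changed. A block on numbers shared across genotypes gave 22 higher and 71 lower in the input and 204 higher and 585 lower hosts. Chosen after the data were seen: members called in both genotypes gave 77 rising and 1 falling, and the IP libraries alone 52 falling. Motif shares in windows around peak midpoints were not run, as no genome was used here. Median counts per member of 18.8 (IP) and 8.42 (input) limited the tests, and 398 members were not tested.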

Other observations

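UBTF, a factor that drives ribosomal RNA transcription, held 3 members. Those in exons of 369 and 306 bases that were called in K513R alone rose by 1.20 ± 0.22 and 1.95 ± 0.49 (log2 change of IP/input ± SE, adjusted p = 0.00145 and 0.00817, edgeR), and the one called in WT had a mean IP count of 3 and was not tested. The readthrough gene FMC1-LUC7L2 held 3 members called in K513R alone, with changes of 0.67 ± 0.20, 0.59 ± 0.22 and 0.52 ± 0.24, of which the largest passed the test. Its reads cannot be told apart from those of LUC7L2.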
